A study of Rattus norvegicus with 18 samples.

Results

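Zglp1, Gata2, Ooep, Sohlh1 and Figla are genes known from studies of the oocyte, and each was taken by its symbol from a table of rat gene expression. In the files Zglp1 is ENSRNOG00000042601, Gata2 is ENSRNOG00000012347, Ooep is ENSRNOG00000025957, Sohlh1 is ENSRNOG00000033983 and Figla is ENSRNOG00000015877. Each symbol had 1 line, so the set is 5 of 32545 genes, and all 5 were among the 14865 genes that reached 1 RPKM (RNA-seq reads divided by gene length and by the mapped reads of the library) in at least 2 libraries. The table covers 18 RNA-seq libraries of rats of the strain Crlj:WI. Every rat, in every group, carried the genotype Prdm14-Venus, a fluorescent reporter named for a gene of the early germline, so that the libraries hold no group without it.

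Primordial germ cells (PGC), from which eggs and sperm later form, were sampled at embryonic day 9.5 (E9.5) and then daily to E12.5, with 2 libraries at each age and no sex in the labels. At E15.5 there were 2 female and 2 male libraries. Epiblast, the tissue from which PGC arise, was taken at E7.25 and E7.75, with 1 female and 2 male libraries at each age. The labels do not say that libraries of a group came from different embryos or litters. A p-value here sets a difference between groups against the spread of libraries within groups, pooled over all groups of the fit. That spread may be only technical. These are bulk libraries, in which a lower number of cells of a type and less RNA per cell cannot be told apart.

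The table holds no read counts. The commonest ratio among values under 50 RPKM was therefore used to estimate the depth of each library, relative to the E7.75 female epiblast library. This depth was 82.6% to 120.9% in 14 libraries. It was 20.7% to 22.9% in the 4 PGC libraries that belong to E10.5 or E11.5, so low values are least certain at these ages. Fau, a ribosomal protein gene that every cell uses, is listed at 0 in all 18 libraries, so a 0 below may also be a failed estimate. Germ cell marker genes, among them Dazl and Ddx4, summed to 1960 to 1970 RPKM in female and 1920 to 1940 RPKM in male E15.5 PGC, to 427 to 604 RPKM at E9.5, and to 21.5 to 46.6 RPKM in epiblast. Single genes of that list had unlike courses. Dazl had 0.310 and 0.0451 RPKM in the E9.5 libraries and 938 to 1069 RPKM in those of E15.5. Tfap2c had 206 and 287 RPKM in the E9.5 libraries and 196 to 245 RPKM in those of E15.5. For Nanos3 these values were 84.1 and 62.5 RPKM, and 49.2 to 78.2 RPKM. The lower sum at E9.5 does not by itself show fewer germ cells.

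In the mouse, germ cells that have entered the fetal ovary are driven to the female fate and into meiosis by bone morphogenetic protein (BMP) and retinoic acid. ZGLP1, a zinc finger protein related to the GATA family, acts downstream of BMP in mouse fetal germ cells and is needed there for the oogenic program. SOHLH1 and FIGLA are basic helix-loop-helix transcription factors: SOHLH1 is needed for oocyte growth in the early follicle and, in males, for the differentiation of spermatogonia, while FIGLA drives the genes of the egg coat and the formation of primordial follicles. OOEP belongs to the subcortical maternal complex, a protein assembly of the growing oocyte that the early embryo needs. GATA2 is a transcription factor best known from blood and endothelial progenitors and from trophoblast.

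The promoters of Sohlh1, Figla and Gata2 are given below, Sohlh1 being lower and the others higher in female germ cells at E15.5. They run from 250 bases before to 50 bases after the annotated transcript start, as RefSeq gives them for the build GRCr8. They are shown because basic helix-loop-helix factors such as SOHLH1 and FIGLA bind E-boxes (CANNTG), and because STRA8 and the SMAD proteins of the BMP pathway each have a described motif. Capitals mark the E-box with a CG centre (CACGTG), the motif described for STRA8 and MEIOSIN (CNCCTCAG) and the GC-rich element of SMAD1 and SMAD5 (GGCGCC). Sohlh1 is shown from the minus strand at chr3:29065539-29065838, Figla from the plus strand at chr4:119989733-119990032, and Gata2 from the plus strand at chr4:122216031-122216330.
Sohlh1: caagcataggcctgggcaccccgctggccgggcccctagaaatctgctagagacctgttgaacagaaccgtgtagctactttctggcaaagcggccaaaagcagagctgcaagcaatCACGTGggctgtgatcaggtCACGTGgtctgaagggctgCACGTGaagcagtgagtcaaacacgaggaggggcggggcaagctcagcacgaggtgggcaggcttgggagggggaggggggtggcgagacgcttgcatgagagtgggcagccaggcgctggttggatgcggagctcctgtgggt
Figla: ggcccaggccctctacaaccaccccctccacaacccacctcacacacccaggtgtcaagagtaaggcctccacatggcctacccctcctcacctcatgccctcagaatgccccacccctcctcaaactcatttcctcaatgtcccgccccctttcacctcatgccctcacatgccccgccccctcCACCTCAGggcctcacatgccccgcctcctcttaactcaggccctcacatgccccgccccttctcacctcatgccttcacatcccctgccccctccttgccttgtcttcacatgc
Gata2: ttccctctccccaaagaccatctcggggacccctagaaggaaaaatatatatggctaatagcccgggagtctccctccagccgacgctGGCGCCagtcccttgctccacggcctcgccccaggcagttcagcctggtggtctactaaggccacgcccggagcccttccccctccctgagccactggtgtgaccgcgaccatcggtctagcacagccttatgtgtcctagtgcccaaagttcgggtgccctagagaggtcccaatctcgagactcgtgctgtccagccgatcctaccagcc

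The Sohlh1 promoter held 3 CACGTG E-boxes, at -133 to -128, -113 to -108 and -94 to -89 from the start base, which is counted as 0. Both strands were searched, and CACGTG stood in 6.432% of the 33365 rat promoters of the same length, with 3 or more copies in 0.05695%. A nuclear receptor element (AGGTCA), found in 16.2% of promoters, lay at -117 to -112 and shares bases with the middle E-box. The Figla promoter had 6 matches to CANNTG, where 72.08% of promoters have at least 1 and 0.5215% have 6 or more. A run of 16 bases recurs 3 times in the Figla window, so that these E-boxes are not independent of each other. Figla also held 1 CNCCTCAG at -65 to -58 (8.866% of promoters hold it) and 1 CAGGTG, itself a CANNTG, at -202 to -197 (18.86%).

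The Gata2 window had 0 matches to CANNTG and 1 GGCGCC, at -162 to -157, a motif of 11.04% of promoters. RefSeq lists 3 transcripts for Gata2, of which only 1 window was searched, and the start used in these cells is not known. The Ooep window held 1 CANNTG and 1 GATA (60.46% of promoters). The NOBOX element in its G form (TAATTG, 8.2% of promoters) had 0 matches in these 4 windows. Such matches describe letters in 300 bases and are not binding sites shown in these cells. Zglp1 was matched by name only.

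**Figure D1:**
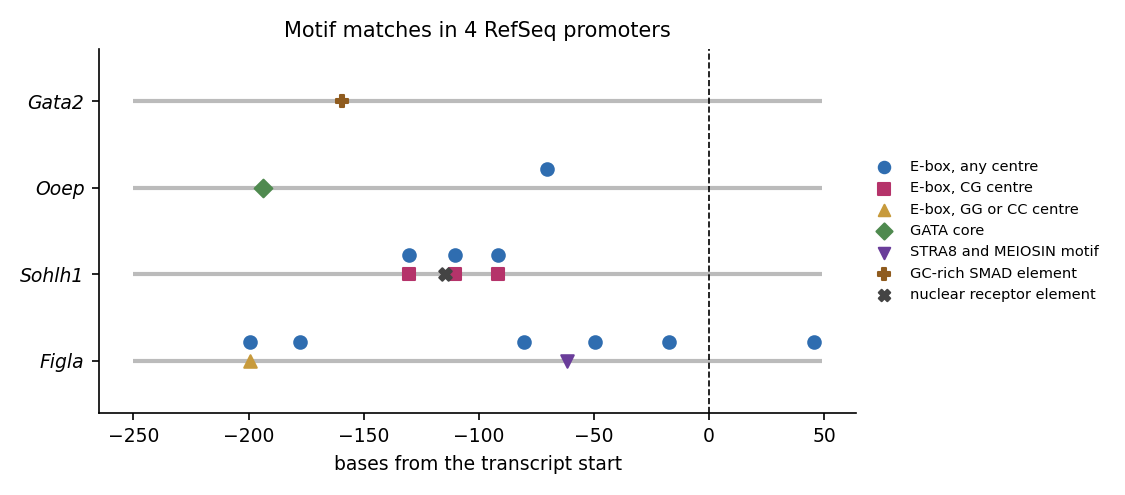
Motif matches in the RefSeq promoters of 4 of the 5 genes. The horizontal axis gives the distance in bases from the transcript start (dashed line), each grey bar is the window searched, and each symbol is a match on either strand. The 3 E-boxes with a CG centre stand together in Sohlh1, the 6 E-boxes of Figla are spread over its window, and Gata2 shows a single GC-rich SMAD element.

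Zglp1 was the highest of the 5 genes in female E15.5 PGC, and the levels of the 5 genes over all libraries followed different courses. Zglp1 stood at 1.13 RPKM in the female library and was listed at 0 and at 0.562 RPKM in the male libraries of E7.25 epiblast. In E7.75 epiblast it stood at 2.14 RPKM in the female library and at 1.25 and 1.79 RPKM in the male libraries. In PGC it stood at 0.487 and 0.593 RPKM at E9.5, 15.02 and 4.39 RPKM at E10.5, 6.67 and 5.71 RPKM at E11.5, and 2.93 and 4.69 RPKM at E12.5. Every PGC library from E10.5 on was thus above every E9.5 and epiblast library. At E15.5 it reached 115 and 153 RPKM in female PGC, against 13.6 and 8.84 RPKM in male PGC. The female values lie far above the other 16 libraries, while the ranges of E15.5 male, E10.5 and E11.5 PGC run into each other.

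Gata2 had its levels in separated bursts. In epiblast it did not exceed 0.171 RPKM. In PGC it stood at 12.4 and 12.3 RPKM at E9.5, at 4.92 and 0.0862 RPKM at E10.5, at 0.415 RPKM and listed at 0 at E11.5, and at 0.396 and 0.261 RPKM at E12.5. At E15.5 it stood at 45.0 and 33.4 RPKM in female PGC and was listed at 0 in both male libraries. The order of levels was female E15.5, then E9.5, then E10.5 PGC, with no overlap between these neighbours. From E10.5 downward the neighbours E10.5, E12.5 and E11.5 PGC and E7.75 epiblast overlapped.

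Ooep had a similar course at the ends of the series. It did not exceed 0.150 RPKM in epiblast, where 4 of 6 libraries list it at 0. In PGC it stood at 29.1 and 11.5 RPKM at E9.5, was listed at 0 in both E10.5 libraries, stood at 1.31 RPKM and at 0 at E11.5, and at 0.346 and 1.41 RPKM at E12.5. At E15.5 it stood at 26.5 and 31.6 RPKM in female PGC, against 6.02 and 7.57 RPKM in male PGC. The ranges of female E15.5 and of E9.5 PGC overlapped, male E15.5 PGC came next without overlap, and E12.5 PGC followed, again without overlap.

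Sohlh1 and Figla were the low members. Sohlh1 stood at 2.53 RPKM in the female library and at 1.11 and 1.79 RPKM in the male libraries of E7.25 epiblast, and was listed at 0 in all E7.75 epiblast libraries and in all PGC libraries from E9.5 to E12.5. At E15.5 it stood at 0.435 and 0.0292 RPKM in female PGC, against 6.06 and 4.74 RPKM in male PGC. It is the member whose male germ cells were above the female ones, and E7.25 epiblast lay between them without overlap. Figla was listed at 0 in 14 of 18 libraries. It stood at 0.235 RPKM in E12.5 replicate 1 and at 0 in the other, and at E15.5 at 3.47 and 5.28 RPKM in female PGC, against 0 and 1.93 RPKM in male PGC.

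**Figure D2:**
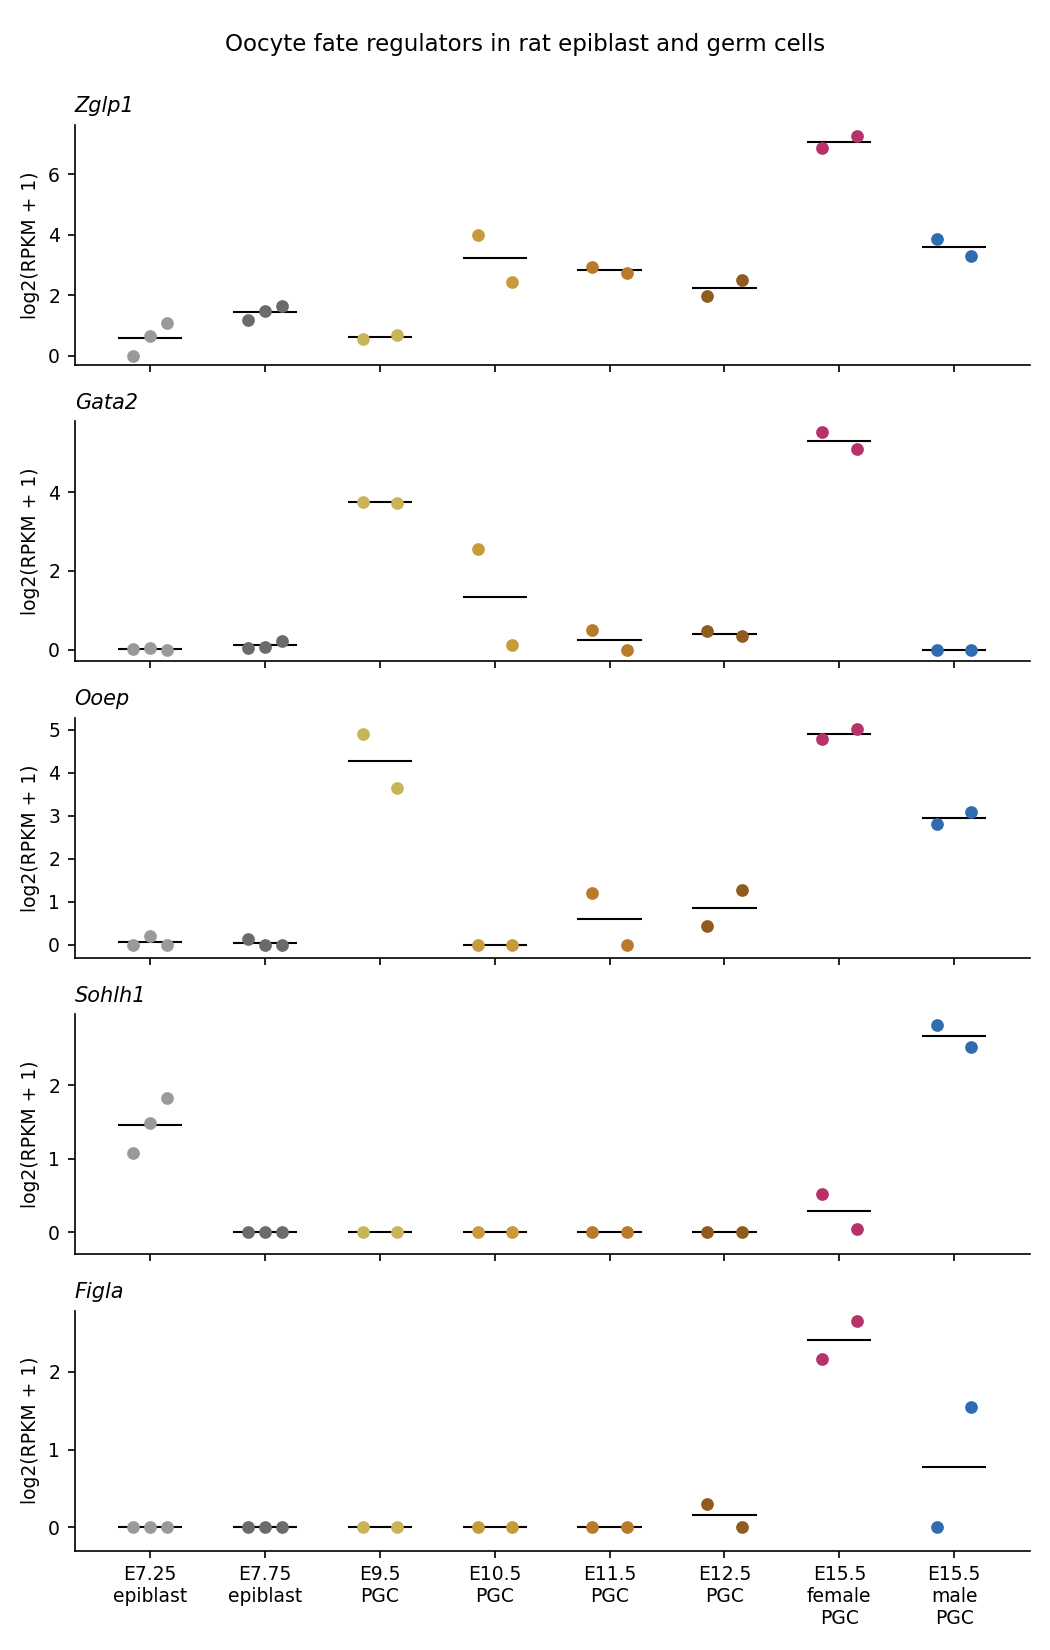
Level of each regulator in every library, as log2(RPKM + 1) on the vertical axis, by group on the horizontal axis. Each point is a library and each bar the mean of its group (3 libraries in epiblast, 2 in PGC). Female E15.5 PGC are the highest group for Zglp1, Gata2 and Figla, Gata2 and Ooep have an earlier high level at E9.5, and Sohlh1 is highest in male E15.5 PGC.

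The comparison of female with male PGC at E15.5 asks which regulators separate the sexes once sex is labelled. Zglp1, Gata2, Ooep and Figla were higher in female PGC and Sohlh1 was lower, so that 5 of 5 passed the test. The 5 genes were chosen with earlier results of these data known. This count and those below are therefore not evidence about such genes as a class. Figla reached 1 RPKM in 3 libraries, both female E15.5 libraries among them, and passed the filter only through E15.5 PGC. In that comparison 8.16% of all tested genes passed, 3.66% higher and 4.5% lower. The test is limma on log2(RPKM + 1), two-sided, with p-values adjusted over all tested genes by the method of Benjamini and Hochberg, and the fold changes below are on this scale unless called folds of mean RPKM. This scale understates the change of genes with low values.

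Zglp1 averaged 134 RPKM in female and 11.2 RPKM in male PGC, 11.9-fold higher in mean RPKM. Its log2 fold change was 3.48 ± 0.48 (SE, n = 2 each, limma adjusted p = 0.00128), which ranked 24 among the rises of all tested genes. Gata2, with both male libraries at 0, differed by 5.32 ± 0.59 (limma adjusted p = 0.000318), which ranked 5, and no fold of means is given against a group at 0. Sohlh1 differed by -2.39 ± 0.27 (limma adjusted p = 0.000376), with means of 0.232 RPKM in female and 5.40 RPKM in male PGC, 23.3-fold lower in mean RPKM. That fold rests on low female values and was 185 without female replicate 1 and 12.4 without female replicate 2. These 3 calls held without any 1 of the 18 libraries. They were lost only when the 4 E15.5 libraries were fitted alone, with adjusted p of 0.0750 for Zglp1, 0.0717 for Gata2 and 0.0982 for Sohlh1, a fit with 2 residual degrees of freedom in which 0 of 14865 genes passed and 3183 had an unadjusted p under 0.05.

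Ooep averaged 29.1 RPKM in female and 6.80 RPKM in male PGC, a 4.28-fold difference of means, with a log2 fold change of 1.95 ± 0.49 (limma adjusted p = 0.0328). Figla differed by 1.63 ± 0.40 (limma adjusted p = 0.0298), with 3.47 and 5.28 RPKM in female PGC and 0 and 1.93 RPKM in male PGC. Their groups did not overlap, but the calls were close to the threshold. Ooep did not pass when any 1 of the 4 E15.5 libraries was left out (adjusted p from 0.0900 to 0.168) or with a pseudocount of 0.1 (adjusted p = 0.351). Figla was at 0.86 (adjusted p = 0.171) without male replicate 1 and at 2.41 (adjusted p = 0.00224) without male replicate 2, and did not pass without female replicate 1 (adjusted p = 0.0555) or 2 (adjusted p = 0.166), with a pseudocount of 0.1 (adjusted p = 0.1198) or without the 4 shallow libraries (adjusted p = 0.0528).

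Other cell types of the gonad and its vessels were looked at beside these differences. Of 18 endothelial and blood markers, 3 reached 1 RPKM in female and 3 in male libraries, and their sums were 32.2 to 33.8 RPKM in female and 37.8 to 38.6 RPKM in male PGC. Kdr, Cdh5, Tek, Cldn5, Emcn, Tal1 and Gata1 were at 0 in both female libraries, in which Gata2 was at its highest. Lmo2, a partner of GATA factors, gave 29.2 and 28.2 RPKM of the female sums. Of 19 gonadal somatic markers, 7 reached 1 RPKM in female and 10 in male libraries, with sums of 42.7 to 52.0 RPKM in female and 43.4 to 43.4 RPKM in male PGC. Kitlg, the KIT ligand made by somatic cells of the gonad, was the marker of that list that passed as higher in female PGC, with 16.1 and 6.08 RPKM in female and 2.73 and 0.821 RPKM in male PGC (2.08 ± 0.47, limma adjusted p = 0.0198). Foxl2, of ovarian granulosa cells, was at 0 in all 18 libraries, so its 0 says little here. Amh, of Sertoli cells, was at 0 in female PGC and at 3.20 and 1.02 RPKM in male PGC. It was the marker that passed as lower in female PGC (limma adjusted p = 0.0290). Wnt4 stood at 1.61 and 1.27 RPKM in female PGC and at 0 in male PGC. Rspo1 stood at 5.40 and 7.10 RPKM in female and 4.19 and 4.79 RPKM in male PGC. Lhx9 stood at 15.1 and 29.5 RPKM in female and 19.5 and 23.8 RPKM in male PGC. None of Wnt4, Rspo1 and Lhx9 passed. Of the 12 tested, 1 was higher, 1 lower and 10 did not pass, with a median of -0.08, where 8.16% of all tested genes passed. Of 15 mesoderm markers, 8 reached 1 RPKM in female and 6 in male libraries, with sums of 69.8 to 71.0 RPKM in female and 34.0 to 39.5 RPKM in male PGC, and Pitx1 and Prrx1 were at 0 in all 4. Hand1, Cdx1 and Cdx2 were the mesoderm markers that passed as higher in female PGC. The part of these genes in the result was not tested.

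Zglp1 lies 137 bases from Fdx2 in the RefSeq annotation of GRCr8. Fdx2 appears here under its older symbol Fdx1l, and the SMART-Seq v4 kit does not mark strand. The use of strand in counting is not given in the sources used here. Fdx1l stood at 99.8 and 131 RPKM in female and at 58.0 and 50.6 RPKM in male E15.5 PGC. Zglp1 amounted to 114.9% and 116.4% of Fdx1l in female PGC and to 23.36% and 17.47% in male PGC. In epiblast the share was 0% to 2.32%, with Fdx1l at 77.6 to 92.4 RPKM. The part of Fdx1l in the Zglp1 result was not tested. Gata2 overlaps a long non-coding RNA gene, LOC120102333, in the RefSeq annotation of GRCr8. As the kit does not mark strand, reads from the shared stretch cannot be told apart by strand.

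The step from E12.5 to E15.5 asks what each sex gained or lost after the last age without a sex label. Against E12.5 PGC, 4 of the 5 genes were higher in female E15.5 PGC (over all tested genes 18.4% passed, 8.6% higher and 9.84% lower), and 2 of 5 were higher in male E15.5 PGC (over all tested genes 8.73% passed, 3.58% higher and 5.15% lower). Both comparisons use the same E12.5 libraries, whose sex is not labelled. The 15 mesoderm markers summed to 69.8 to 71.0 RPKM in female E15.5 PGC, to 34.0 to 39.5 RPKM in male E15.5 PGC and to 13.6 to 18.2 RPKM at E12.5. Against E12.5, 5 of the 15 were higher and 0 lower in female PGC, Cdx2 and Hand1 with the largest rises, and 2 were higher and 0 lower in male PGC, namely Prrx2 and Foxf1. Of 12 tested gonadal somatic markers, 2 were higher and 1 lower in female PGC, and 3 higher and 1 lower in male PGC. The part of these genes in the result was not tested.

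In female E15.5 PGC, Zglp1 averaged 134 RPKM, against 3.81 RPKM at E12.5, 35.1-fold higher (log2 fold change 4.82 ± 0.48, limma adjusted p = 1.65e-05). Gata2 averaged 39.2 RPKM in female E15.5 PGC, against 0.328 RPKM at E12.5 (4.91 ± 0.54, limma adjusted p = 3.75e-05), and the 2 genes ranked 6 and 5 among all rises. Ooep averaged 29.1 RPKM against 0.879 RPKM (4.06 ± 0.46, limma adjusted p = 4.29e-05). Figla rose by 2.25 ± 0.37 (limma adjusted p = 0.000893), and Sohlh1 did not pass (0.28 ± 0.28, limma adjusted p = 0.552). These 4 calls held in every alternative run, the fit without E12.5 replicate 1 included. That library stood apart in embryonic globins, with Hbz at 226 RPKM and Hbe1 at 97.4 RPKM, against 1.08 and 0 RPKM in E12.5 replicate 2.

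In male E15.5 PGC, Sohlh1 rose by 2.67 ± 0.28 (limma adjusted p = 4.79e-05), with E12.5 listed at 0, and Ooep rose by 2.11 ± 0.46 (limma adjusted p = 0.0109), 7.73-fold in mean RPKM. The E12.5 values are low, and that fold was 4.81 without E12.5 replicate 1 and 19.6 without E12.5 replicate 2. The Ooep call was lost without male replicate 2 (adjusted p = 0.0839) and without E12.5 replicate 1 (adjusted p = 0.115). Zglp1 averaged 11.2 RPKM in male PGC and 3.81 RPKM at E12.5 and did not pass (1.34 ± 0.48, 95% interval 0.31 to 2.37, limma adjusted p = 0.110). It passed without either E10.5 library (adjusted p of 0.0429 and 0.0419). Gata2 (-0.41, adjusted p = 0.759) and Figla (0.62, adjusted p = 0.385) did not pass in limma.

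The earlier ages show Gata2 and Ooep apart from Zglp1. Against E7.75 epiblast, 2 of 5 genes were higher in E9.5 PGC, where 27.6% of tested genes passed, 16.3% higher and 11.3% lower. Gata2 rose by 3.63 ± 0.50 (limma adjusted p = 0.000103) and Ooep by 4.23 ± 0.42 (limma adjusted p = 5.97e-06), while Zglp1 did not pass (-0.81 ± 0.44, limma adjusted p = 0.191). At E10.5 against E9.5, 29.9% of genes passed, 11.5% higher and 18.4% lower, with a median over all genes of -0.158. Gata2 fell by 2.40 ± 0.54 (limma adjusted p = 0.00435) and Ooep by 4.28 ± 0.46 (limma adjusted p = 2.04e-05), whereas Zglp1 rose by 2.59 ± 0.48 (limma adjusted p = 0.00109). The relative depths were 20.7% and 22.1% at E10.5 and 104.9% and 103.3% at E9.5, and E10.5 replicate 1 had 15.02 RPKM of Zglp1 where replicate 2 had 4.39. Zglp1 was still higher without replicate 1, by 1.81 (adjusted p = 0.0142).

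E9.5 PGC also held markers of other cell types. The 18 endothelial and blood markers summed to 130 to 312 RPKM at E9.5, with 10 at 1 RPKM or more, and to 4.36 to 6.04 RPKM at E10.5, with 4 at that level. Hbb, Hbb-b1, Hbe1, Gata1 and Ptprc were at 0 in both E9.5 libraries. Hbb and Gata1 were at 0 in all 18 libraries, so their 0 says little. The 15 mesoderm markers summed to 668 to 740 RPKM at E9.5, with 14 at 1 RPKM or more, and to 57.5 to 89.0 RPKM at E10.5. The 19 gonadal somatic markers summed to 116 to 119 RPKM at E9.5 and to 44.3 to 49.6 RPKM at E10.5. Gata2 was nearly equal in the E9.5 libraries (12.4 and 12.3 RPKM). Several marker and GATA genes were also close, among them Etv2 at 73.9 and 65.8, Gata3 at 14.6 and 11.6, Hand1 at 261 and 245 and Prrx2 at 116 and 120 RPKM. Other marker and GATA genes differed between those libraries, in both directions. Kdr at 55.2 and 25.3, Tal1 at 23.4 and 2.82, and Cldn5 at 27.4 and 0 RPKM were higher in replicate 1. Gata4 at 13.25 and 27.7, Cdx1 at 42.8 and 151.6, and Pdgfra at 2.89 and 9.41 RPKM were higher in replicate 2. Ooep was at 29.1 RPKM in replicate 1 and at 11.5 RPKM in replicate 2. The part of these cell types in the E9.5 levels was not tested.

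From E10.5 to E12.5 no change of the 5 genes passed. Sohlh1 was listed at 0 in all libraries of these ages, and Figla in all but E12.5 replicate 1, so a change of these genes could hardly show. The E10.5 and E11.5 libraries are also the shallow ones, so a lack of calls here does not show steady levels. At E11.5 against E10.5, 0 of 5 passed in limma, with 0 of 5 at an unadjusted p under 0.05 (over all tested genes 7.19% passed, 3.59% higher and 3.61% lower), and likewise 0 of 5 at E12.5 against E11.5, again with 0 at an unadjusted p under 0.05 (over all tested genes 7.21% passed, 4.12% higher and 3.09% lower). Zglp1 differed by -0.37 ± 0.48 at the earlier step (limma adjusted p = 0.740) and by -0.60 ± 0.48 at the later one (limma adjusted p = 0.539). Gata2 at the earlier step differed by -1.09 ± 0.54 (limma adjusted p = 0.263). It passed without E10.5 replicate 2, with -2.31 (adjusted p = 0.00275), and turned to 0.13 without replicate 1, so its value rests on those 2 unlike libraries. At E12.5 against E9.5, 23.2% of genes passed, 11.3% higher and 11.9% lower: Gata2 fell by 3.33 ± 0.54 (limma adjusted p = 0.000528), Ooep by 3.43 ± 0.46 (limma adjusted p = 9.72e-05), and Zglp1 rose by 1.62 ± 0.48 (limma adjusted p = 0.0243). The Zglp1 call was lost without any 1 of these 4 libraries (adjusted p from 0.0515 to 0.162).

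Sohlh1 was the member that differed between the epiblast ages. At E7.75 against E7.25, 0.269% of genes passed (0.101% higher and 0.168% lower), and Sohlh1 was lower, listed at 0 in all 3 E7.75 libraries, against 1.11 to 2.53 RPKM at E7.25 (-1.46 ± 0.23, limma adjusted p = 0.0169). It lost the call without E7.25 male replicate 2, E7.25 female replicate 1, or either E7.75 male library (adjusted p from 0.0599 to 0.0679). Zglp1 differed by 0.86 ± 0.39 (limma adjusted p = 0.558). Over all ages, PGC against epiblast, 58.5% of genes passed, 32.1% higher and 26.4% lower: Zglp1 (2.25 ± 0.24, limma adjusted p = 1.95e-06), Ooep (2.21 ± 0.23, 1.50e-06), Gata2 (1.78 ± 0.27, 6.13e-05) and Figla (0.56 ± 0.19, 0.0202) were higher in PGC, and Sohlh1 did not pass (-0.24 ± 0.14, limma adjusted p = 0.159). Of the 15 mesoderm markers, 12 were higher in PGC and 0 lower, and their part was not tested.

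In epiblast the sexes could be compared with 2 female and 4 male libraries over both ages. There 0 of 5 genes passed in limma, and 0 of 5 had an unadjusted p under 0.05, where 0.0605% of all genes passed, 0.0135% higher and 0.0471% lower. Figla was listed at 0 in all epiblast libraries, Ooep did not exceed 0.150 RPKM and Gata2 did not exceed 0.171 RPKM. For Figla, Ooep and Gata2 a sex difference could hardly show in epiblast, and the subtraction below gives back little but their E15.5 value. Zglp1 differed by 0.55 ± 0.42 and Sohlh1 by 0.27 ± 0.23, each with a limma adjusted p of 1. The sex difference at E15.5 minus that in epiblast was then tested, and 3 of 5 genes passed (over all tested genes 2.91% passed, 1.22% higher and 1.7% lower). The difference was 5.24 ± 0.78 for Gata2 (limma adjusted p = 0.00493), 2.93 ± 0.63 for Zglp1 (limma adjusted p = 0.0308) and -2.66 ± 0.36 for Sohlh1 (limma adjusted p = 0.00251). Ooep (2.03 ± 0.65, adjusted p = 0.130) and Figla (1.63 ± 0.53, adjusted p = 0.138) did not pass in limma, and with 1 female library per epiblast age the precision is low.

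**Figure D3:**
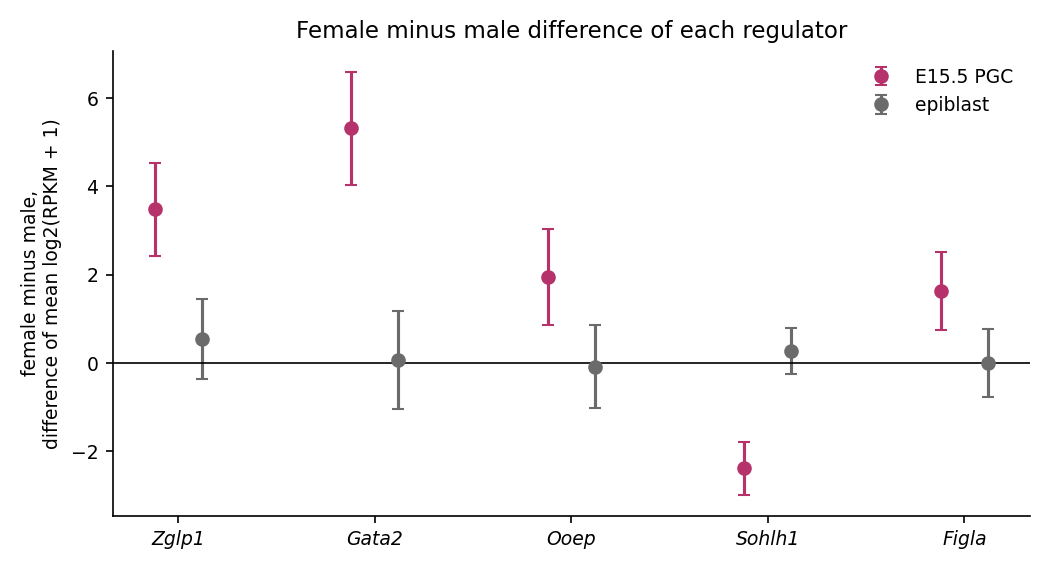
Female minus male difference of mean log2(RPKM + 1) for each regulator in E15.5 PGC (coloured) and in epiblast (grey), with 95% intervals from limma. The E15.5 intervals of all 5 genes leave out 0, with Sohlh1 below it, and the epiblast intervals all include 0. Gata2, Ooep and Figla were at or near 0 RPKM in epiblast, so a sex difference could hardly show there.

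The other genes of the oocyte program are counted here beside the 8.16% of all tested genes that passed between the sexes. Of 9 tested oocyte transcription factors, 1 was higher in female E15.5 PGC, 0 were lower and 8 did not pass, with a median of 0.02 against a median of 0 over all tested genes. The higher gene was Foxo3, which keeps primordial follicles dormant, with 9.35 RPKM in female and 2.04 RPKM in male PGC (limma adjusted p = 0.0494). Its libraries stood at 9.43 and 9.27 RPKM in female and at 0.529 and 3.55 RPKM in male PGC. At E12.5 Foxo3 stood at 11.4 and 6.50 RPKM, so the female level was no gain over that age and the male level was low. Dynll1, which had the highest mean over the 18 libraries among the genes of that list that did not pass, stood at 871 RPKM in female and 876 RPKM in male PGC. Sohlh2, which pairs with SOHLH1 in the mouse, and Nobox, an oocyte homeobox gene downstream of it there, are named here after their values were seen, and neither passed. Sohlh2 stood at 248 and 253 RPKM in female and 170 and 187 RPKM in male PGC (0.49 ± 0.53, limma adjusted p = 0.673). Nobox stood at 3.28 and 1.001 RPKM in female and 9.97 and 10.6 RPKM in male PGC (-1.95 ± 0.66, limma adjusted p = 0.0954).

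Of 13 genes of the zona pellucida and the growing oocyte in the table, 5 were tested and 0 passed in limma in either direction, 1 at an unadjusted p under 0.05, with a median of -0.60. Zp2, Zp3, Oosp1 and Npm2 averaged no more than 2.13 RPKM in either sex, so the lack of calls says little about them. The median is the value of the other tested gene, Pou5f1, also an epiblast marker here, with 119 RPKM in female and 185 RPKM in male PGC. Of 7 genes of the subcortical maternal complex, to which Ooep belongs, 4 were tested: 0 were higher, 1 was lower and 3 did not pass. The lower one was Khdc3, with 1.01 RPKM in female and 4.01 RPKM in male PGC (-1.32 ± 0.27, limma adjusted p = 0.0125), opposite to Ooep. Zbed3, which had the highest mean over the 18 libraries among those that did not pass, stood at 6.52 RPKM in female and 6.48 RPKM in male PGC.

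Meiotic genes that passed were all higher in female PGC. Of 24 meiotic prophase genes, 21 were tested, of which 4 were higher in female PGC and 17 did not pass, with a median of 0.69. Stra8, the gatekeeper of meiotic entry, stood at 71.9 and 80.4 RPKM in female PGC and was listed at 0 in male PGC (6.27 ± 0.26, limma adjusted p = 3.52e-07). Rec8, the meiotic cohesin subunit, averaged 62.0 RPKM in female and 7.32 RPKM in male PGC (2.96 ± 0.70, limma adjusted p = 0.0229). Dazl, the most abundant gene that did not pass, averaged 939 RPKM in female and 1042 RPKM in male PGC.

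Of 36 lines of BMP and retinoic acid genes 32 were tested, of which 6 were higher, 2 lower and 24 did not pass, with a median of 0.49. Id1 and Id2, direct targets of BMP signalling, gave the largest rises. Id1 averaged 1073 RPKM in female and 30.2 RPKM in male PGC (5.10 ± 0.29, limma adjusted p = 2.70e-06). Id2 averaged 450 RPKM in female and 21.95 RPKM in male PGC (4.37 ± 0.28, limma adjusted p = 6.05e-06). The falls were Aldh1a2, an enzyme of retinoic acid synthesis, with 9.93 RPKM in female and 56.3 RPKM in male PGC, and Acvr2b, an activin receptor, with 31.8 RPKM in female and 60.3 RPKM in male PGC.

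Gata3 was among the genes that separated the sexes. Of 10 tested GATA factors and partners, 2 were higher in female E15.5 PGC and 8 did not pass, with a median of 0. Gata3 averaged 13.5 RPKM in female and 0.607 RPKM in male PGC (3.20 ± 0.38, limma adjusted p = 0.000530), and Ldb1, a bridging cofactor of GATA complexes, averaged 45.7 RPKM in female and 25.0 RPKM in male PGC. Lmo2 did not pass (28.7 RPKM in female and 32.4 RPKM in male PGC). At E9.5 against E7.75 epiblast, 8 of the 10 were higher and 2 did not pass, beside 14 of 15 mesoderm markers and 6 of 13 tested endothelial and blood markers that were higher. Over all tested genes 16.3% were higher and 11.3% lower in that comparison. At E10.5 against E9.5, 8 of the 10 were lower, beside 14 of the 15 and 6 of the 13, where 18.4% of all tested genes were lower and 11.5% higher. Gata1, Tal1 and Lmo2 are in both the GATA and the endothelial list.

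Of 17 tested lines of fetal male germ cell genes, 5 were lower in female PGC, 1 was higher and 11 did not pass, with a median of -0.57. The largest falls were the 2 lines of Lefty2, a Nodal inhibitor, between which reads may be shared. The higher line averaged 0.843 RPKM in female and 111 RPKM in male PGC (-5.92 ± 0.59, limma adjusted p = 0.000139). Mael, a gene of the piRNA pathway, was the higher one, with 151 RPKM in female and 68.7 RPKM in male PGC (limma adjusted p = 0.0467).

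**Figure D4:**
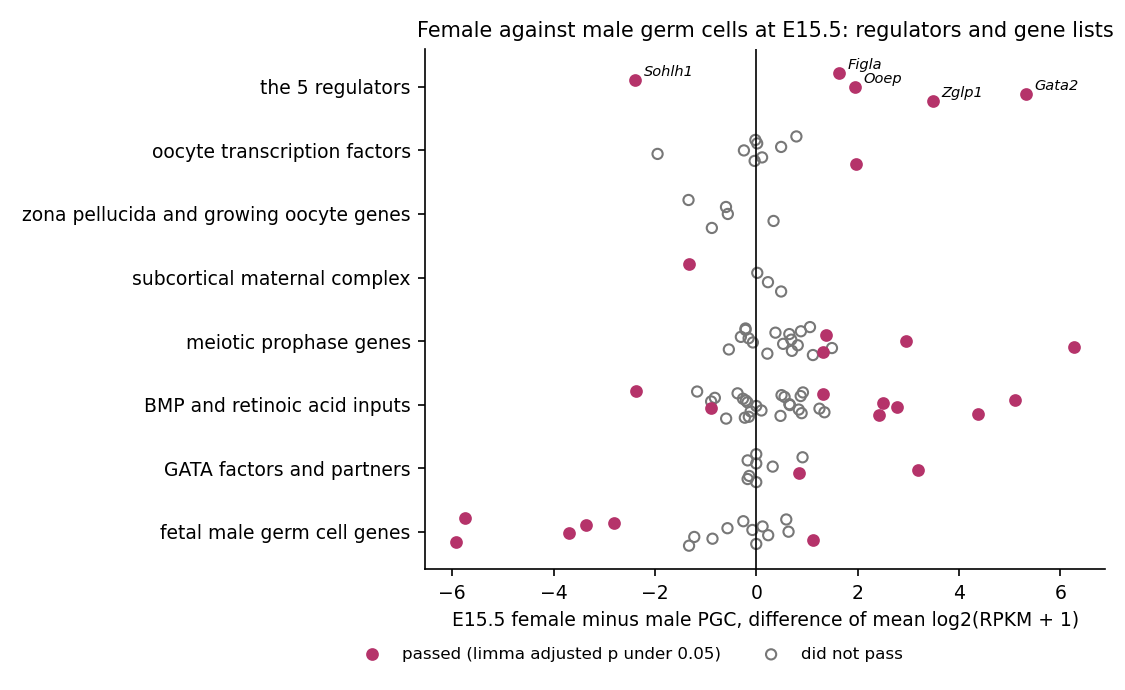
Female minus male E15.5 PGC difference of mean log2(RPKM + 1), on the horizontal axis, for the 5 regulators and for the tested genes of 7 gene lists (rows). Filled points passed in limma at an adjusted p under 0.05 and open points did not. The regulators stand on both sides of 0, meiotic and BMP genes have their filled points mostly above 0, and the fetal male genes mostly below.

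The genes most alike in pattern were found by Pearson's r of log2(RPKM + 1) over the 18 libraries, among 11845 genes with at least 5 RPKM in a library. For Zglp1 they were Cetn2 (0.954), Sar1b (0.938) and Idh3g (0.935). For Gata2 they were Sct (0.942), Gata3 (0.929) and LOC100911406 (0.922). For Ooep they were Rnf166 (0.934), Skap2 (0.931) and Syt17 (0.929). The likeness of Sohlh1 was lower, with Tcp1 (0.83), Fbxo41 (0.81) and SNORD121A (0.805), and Figla was most like Rn60_X_0641.4 (0.951), Slc51a (0.947) and Hspa4l (0.935). Among the members, r was 0.809 between Zglp1 and Figla, 0.796 between Gata2 and Ooep, and -0.31 between Sohlh1 and Gata2. These values describe 18 libraries that share groups and depth, and the female E15.5 libraries weigh in all of them.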

How the data were processed

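The authors deposited 1 table of RPKM values, each library having a column of its own, per the labels. Tools named in the submitters' processing notes are TopHat2 2.1.0 and Cufflinks 2.2.1 on the build rn6, besides cutadapt 1.14 and bcl2fastq 2.18.0.12. RNA was extracted with a PicoPure kit and made into libraries with SMART-Seq v4, per the labels' protocols. Strand use, the gene models and how reads with several map positions were handled is not given in the sources used here. RPKM divides by the mapped total of a library, so abundant genes that change shift the rest.

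From these values, log2(RPKM + 1) was fitted in limma 3.58.1 (R 4.3.3) with a trended variance for 14865 genes with at least 1 RPKM in at least 2 libraries. Groups came from the sample titles. All 18 libraries entered 1 model, of 8 groups (10 residual degrees of freedom), or of 10 groups (8 residual degrees of freedom) where epiblast was split by sex. Calls have a Benjamini-Hochberg adjusted p under 0.05. The fit was first tested on simulated data. Relative depth came from the commonest ratio between a gene's RPKM in the E7.75 female epiblast library and in the library in question. It was taken over genes above 0 and under 50 RPKM in both. That ratio was shared by 57 to 170 genes, of 8297 to 10805 compared. Same-numbered libraries of different groups did not deviate together (28 pairs, r from -0.133 to 0.058). Replicates held no duplicated library: at most 0.00673% of nonzero values were identical in a pair.

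The named genes are the 5 regulators, the 3 genes most alike in pattern to each, and from each list the 2 largest rises and falls that passed and the gene with the highest mean RPKM that did not. Other marker genes and the remaining genes named were chosen after their values were seen. Members and lists were chosen with earlier results of these data known. Gene names and promoters come from RefSeq tables of GRCr8, in which 5 of 5 members were found by symbol and 4 had a promoter. Figures were drawn with matplotlib 3.10.9 under Python 3.11.15. Alternatives were another pseudocount, other filters, quantile normalization, an untrended variance, fits of only the groups compared, a replicate block, leaving out each library, and, added after seeing the data, leaving out the 4 shallow libraries.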

Additional observations from a re-analysis of the deposited data

Results flagged for a closer look

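The sex difference at E15.5 was unlike that in epiblast for Gata2, Zglp1 and Sohlh1, by limma's test, which subtracts the epiblast value from the E15.5 value, on the log2(RPKM + 1) scale. Gata2 differed by 5.24, Zglp1 by 2.93 and Sohlh1 by -2.66. Gata2 was at 45.0 and 33.4 RPKM in female and at 0 in both male E15.5 libraries, and did not exceed 0.171 RPKM in any epiblast library. A sex difference of Gata2 could thus hardly show in epiblast. Zglp1 lost the call without any 1 of 8 libraries (adjusted p up to 0.119), with a pseudocount of 0.1 (adjusted p = 0.354) and with the replicate block (adjusted p = 0.0516).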

How the results depend on the processing

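Counts of passing regulators among the 5 stayed within 1.5 times of the reported count in 288 of 309 alternatives and moved in the other 21. For female against male E15.5 PGC the count was 3 with a pseudocount of 0.1, 3 with a filter at 5 RPKM (which Sohlh1 and Figla do not pass), 0 with only the groups compared (4 at an unadjusted p under 0.05) and 3 to 5 without 1 library. For male E15.5 against E12.5 PGC it was 1 with a pseudocount of 0.1, 1 with the filter at 5 RPKM, 1 with only the groups compared, and 1 to 3 without 1 library. It was 0 at E10.5 against E9.5 with only the groups compared (2 at an unadjusted p under 0.05), 1 at E12.5 against E9.5 with only the groups compared, and 0 to 1 at E11.5 against E10.5 without 1 library. At E7.75 against E7.25 it was 0 with the filter at 5 RPKM, 0 with only the groups compared (2 at an unadjusted p under 0.05), 0 without the 4 shallow libraries, and 0 to 1 without 1 library. Fits of only the groups compared have few residual degrees of freedom, and for the filter Sohlh1 is not tested; the other causes were not tested.

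Values of single regulators kept direction and side of the threshold in 991 of 1048 alternatives. Reversed values were Zglp1 at 0.41 and Gata2 at 0.13 at E11.5 against E10.5 without E10.5 replicate 1 (ranges without 1 library -1.16 to 0.41 and -2.31 to 0.13), Figla at -0.15 in male E15.5 against E12.5 PGC without male replicate 2 (range -0.15 to 1.40), and Sohlh1 at 0.0087 for all PGC against epiblast without the 4 shallow libraries. None of these had passed.

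The labels do not say whether the replicate numbers pair samples. With the replicate block the count for female against male E15.5 PGC was 5, and the block ended the call of Zglp1 for the difference of sex differences (2.95, adjusted p = 0.0516), so that the count there was 2, against 3 without it. It changed no other call of the values reported. Depth at E10.5 and E11.5 was 20.7% to 22.9% of the E7.75 female epiblast library, so that levels listed at 0 there are least certain.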
